A study of Mus musculus with 9 samples.

Results

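The net change of gene expression over the first wave of spermatogenesis was measured by comparing whole testis of mice aged 24 days with whole testis of mice aged 8 days. Both groups came from untreated males of an inbred Swiss albino line and held 3 arrays each, so 6 of the 9 arrays of the study enter the comparison. The other 3 arrays, from mice of 16 days, were used to estimate the spread and to place a change in time. The design text calls the 3 arrays of an age biological replicates. No label says how many animals were pooled for an array. Replicates 1 and 2 are the arrays numbered so in their titles, and replicate 3 is the array with no number. All array rows with exactly 1 gene symbol were used, and a gene with several rows was given their mean, for 19935 genes in all.

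During the first wave, germ cells advance together from spermatogonia through meiosis to haploid spermatids. The youngest testis therefore holds spermatogonia as its only germ cells, beside Sertoli cells, Leydig cells, peritubular myoid cells and vessels. By the oldest age, spermatocytes and round spermatids have been added. Round spermatids build the acrosome, assemble the flagellum and prepare the exchange of histones for transition proteins and protamines. Sertoli cells stop dividing and mature over the same time, and fetal Leydig cells give way to adult ones.

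The deposited values are log2 values relative to each gene's median over the 9 arrays. They give differences between ages and no level, so one gene's level cannot be set against another's. In a whole tissue, fewer cells of a type, a smaller share of that type among all cells and less RNA per cell cannot be told apart. A change is the mean of the 24-day arrays minus the mean of the 8-day arrays on the log2 scale, and its error is the standard error from limma. A gene is said to have risen or fallen where limma's test over all genes gave an adjusted p (Benjamini-Hochberg) under 0.05. Each sentence that counts calls uses that test.

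Many genes differed between the 24-day and the 8-day testis. A total of 3825 genes rose (19.2% of all genes) and 7015 fell (35.2%), so 54.4% were called in either direction. Falls were more numerous and small, with a median of -0.64, whereas rises had a median of 1.01. At a change of at least 2-fold, rises outnumbered falls, with 1937 genes (9.72%) against 1427 (7.16%). Leaving out 1 array at a time gave 1853 to 1994 such rises and 1204 to 1695 such falls. With the arrays' olfactory receptor level as a covariate there were 1936 rises and 1916 falls, so the excess of rises at 2-fold nearly vanished. Of the genes that changed at least 4-fold, 948 rose and 36 fell, and at least 8-fold 501 rose and 3 fell. All 200 genes that changed at least 16-fold had risen, 42 of them at least 32-fold and 9 at least 64-fold. The 3 arrays of 24 days all lay above those of 8 days in 20.5% of genes and all below in 45.0%.

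The balance of small changes moved with the scaling between arrays. The median change of all genes was -0.18 with the values as deposited and -0.06 when each array was centred on its own median, a shift of 0.12. Rises made up 35.3% of the called genes as deposited and 45.6% after centring, when 4389 genes rose (22.0%) and 5236 fell (26.3%). At least 2-fold, 2146 genes rose (10.8%) and 981 fell (4.92%) after centring. All 3825 rises were called after centring too, and no called gene turned its direction. Replicate 1 of 8 days had a median of 0.12 over all genes and 0.17 over 1027 olfactory receptor genes, while the other arrays of both ages had olfactory medians from -0.05 to 0.00. Without it 6602 genes fell, and without it and replicate 2 of 16 days, whose olfactory median was 0.17 too, 7308 fell.

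**Figure D1:**
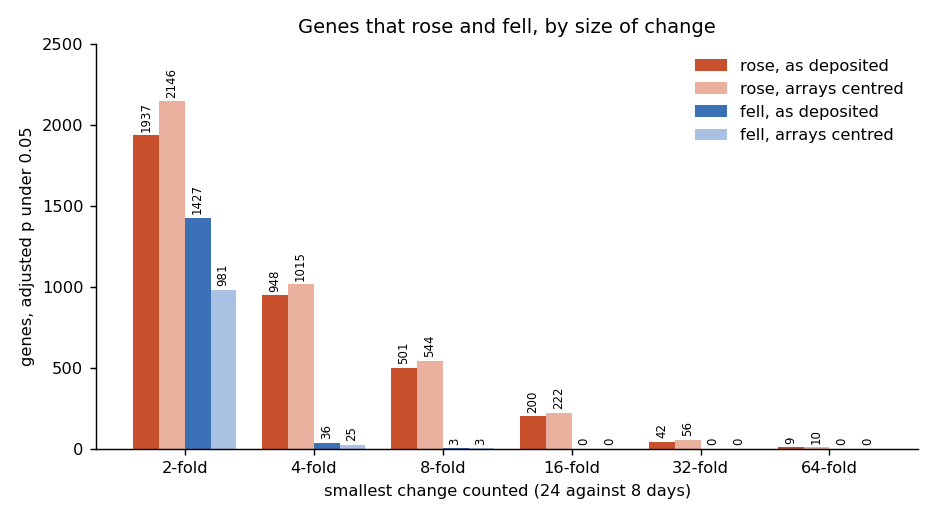
Bars give the number of genes (vertical axis) with an adjusted p under 0.05 that changed at least as much as the fold on the horizontal axis between 8 and 24 days, as deposited and with arrays centred on their medians. Rises exceed falls at every size from 2-fold up, and no fall reaches 16-fold.

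Genes that mark successive steps of germ cell development separated the ages in the order of that development. Zbtb16, a transcription factor of spermatogonial stem cells, had values of 0.46, 0.66 and 0.63 at 8 days and -1.05, -1.17 and -0.94 at 24 days, and fell by 1.63 ± 0.20. Kit, the receptor of differentiating spermatogonia, fell by 1.15 ± 0.17, and Stra8, induced by retinoic acid at meiotic entry, fell by 0.96 ± 0.19. All 3 genes were lower in every 24-day array than in any 8-day array, as were 45.0% of all genes.

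Sycp3, a lateral element protein of the synaptonemal complex, rose by 1.38 ± 0.20, almost all of it (1.35) by 16 days. Ldhc, the lactate dehydrogenase of spermatocytes and later germ cells, was at -4.75, -4.74 and -4.93 at 8 days and 0.89, 0.78 and 0.76 at 24 days. Its 3 arrays of an age differed by at most 0.19, against a rise of 5.62 ± 0.11, or 49.1-fold. Acrv1, an acrosomal matrix protein of round spermatids, was at 0.05, -0.26 and -0.29 at 8 days and 5.56, 5.37 and 4.67 at 24 days. Acrv1 stayed within 0.01 of the 8-day mean at 16 days, so that its whole rise of 5.37 ± 0.21 came after that age. The markers of spermatids were thus high in each array labelled 24 days and at their low value in each array labelled 8 days.

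**Figure D2:**
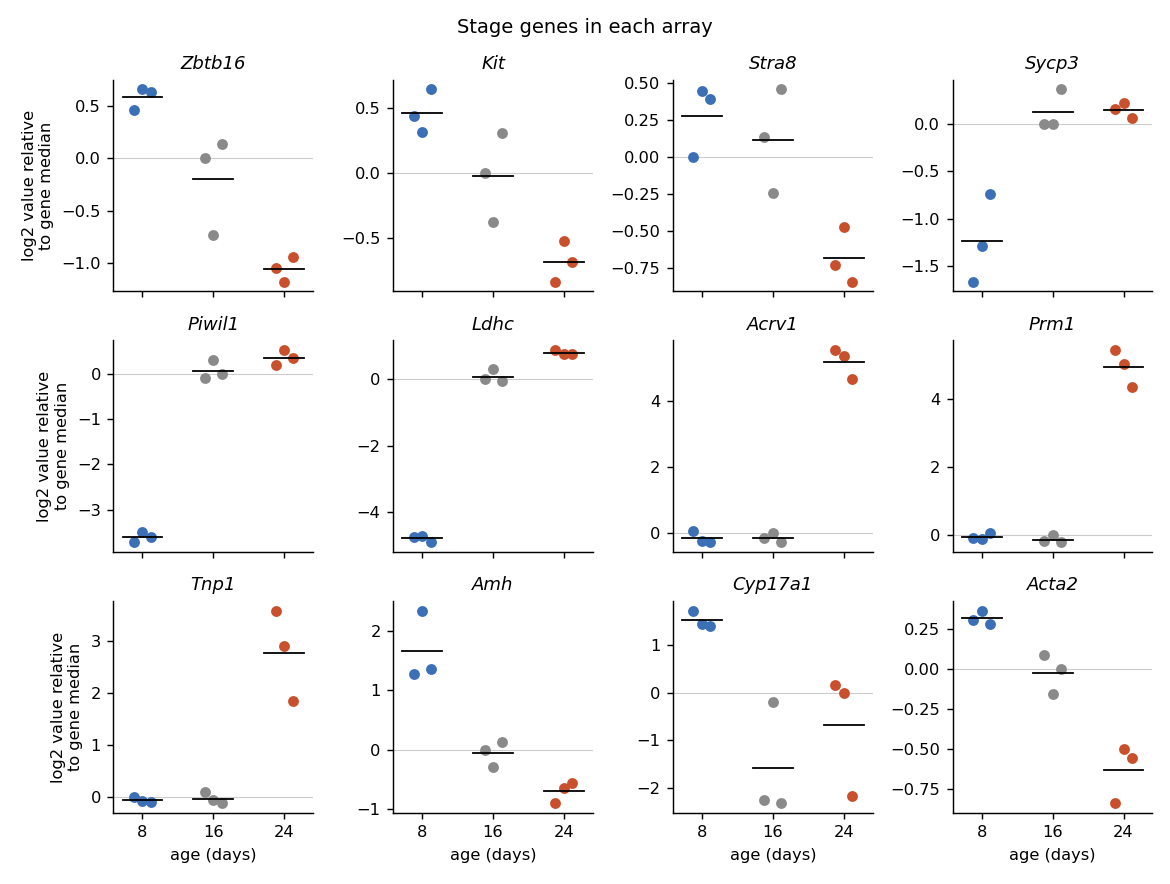
Points are single arrays and bars are means of 3 arrays, in log2 values relative to the gene's median (vertical axis, a scale of its own in each panel) against age in days for 12 stage genes. Zbtb16, Kit, Stra8, Amh and Acta2 lie lowest at 24 days, Sycp3, Piwil1 and Ldhc are near their 24-day value by 16 days, and Acrv1, Prm1 and Tnp1 are high at 24 days only.

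The 15 largest rises among named genes ran from 5.56 to 6.94 on the log2 scale, and their adjusted p in limma ran from 1.74e-09 to 4.81e-07. Spata4, a gene named for its part in spermatogenesis, had the largest. Its 8-day arrays were at -5.70, -6.07 and -5.98, its 24-day arrays at 1.14, 0.93 and 0.99, and it was 123-fold higher at 24 days. Gk2, a glycerol kinase of germ cells, rose 119-fold from -5.43, -5.45 and -5.61 to 1.53, 1.27 and 1.40. Crisp2, a cysteine-rich secretory protein of the acrosome and tail, rose 119-fold from -6.00, -6.02 and -5.76 to 1.10, 0.86 and 0.95. In all 3 genes the arrays of an age lay within 0.37 of each other, a small fraction of the gap between ages.

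The other 12 had varied roles. Among enzymes, Ube2d2b, a ubiquitin-conjugating enzyme, rose by 6.59 ± 0.16, Fbp1, a fructose bisphosphatase of gluconeogenesis, by 6.32 ± 0.15, and Ldhc and Plaat5, a phospholipid acyltransferase, by 5.62 ± 0.11 and 5.56 ± 0.17. Pabpc2, which binds poly(A) tails, rose by 6.30 ± 0.22. The sperm surface proteins Adam5 and Adam3, of which Adam3 is needed for sperm to bind the egg coat, rose by 6.12 ± 0.19 and 5.59 ± 0.32. Fabp9, a fatty acid-binding protein of the perforatorium, rose by 5.95 ± 0.10, Smcp of the mitochondrial capsule by 5.67 ± 0.18 and Fsip2 of the fibrous sheath by 5.58 ± 0.30. Ms4a20, of a family of membrane-spanning proteins, and A26c3 rose by 6.06 ± 0.20 and 5.60 ± 0.27. By 16 days 14 of the 15 were already at least 2-fold above 8 days, and the exception was Smcp, with -0.20, 0.03 and -0.42 at 16 days. Replicate 1 had the highest 24-day value in 12 of the 15.

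The large rises were divided into an early and a late set by a 2-fold cut on the 16-day mean. A gap between the sets was not tested. Of the 501 genes that rose at least 8-fold, 345 had a 16-day mean at least 2-fold above that of 8 days and 156 did not. The 16-day mean was nearer to that of 24 days in 281 of the 501 and nearer to that of 8 days in 220. The early set thus also holds genes that made most of their rise after 16 days. Replicate 1 had the highest value of the 3 arrays of 24 days in 149 of those 156 late genes, and no label gives a difference between these arrays. Leaving out 1 array at a time gave 1853 to 1994 genes that rose at least 2-fold. The early and late sets were not counted again in this way, so their dependence on replicate 1 was not tested.

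The 28 gene lists described next hold 641 measured genes, and their counts are read against the 19.2% of all genes that rose and the 35.2% that fell. The lists were chosen with earlier results of these data known, so their counts describe the members and are not a test. In the lists with no called rise or no called fall, no member passed an unadjusted p under 0.05 in that direction in limma either. Genes of meiosis rose in their majority, most of their change coming before 16 days. Among 42 measured genes of the meiotic axis and recombination, 29 rose and 6 fell, with a median change of 1.05 against -0.18 for all genes. The median change from 8 to 16 days was 0.96 and from 16 to 24 days -0.09. Cntd1, needed for crossover maturation, was at -3.46, -3.64 and -3.57 at 8 days and 0.05, 0.40 and 0.32 at 24 days, a rise of 3.81 ± 0.16. Meiob, a single-strand DNA-binding protein of recombination, rose by 3.14 ± 0.20, its partner Spata22 by 2.55 ± 0.17, and Spo11, which cuts the DNA to start recombination, by 3.12 ± 0.17. Tex11, an X-linked gene of crossover formation, fell by 1.20 ± 0.22, the largest fall of the list.

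In the piRNA pathway, which silences transposons with small RNAs and PIWI proteins, 19 of 22 genes rose and 2 fell (median change 1.11). Tdrd6, a tudor protein of the chromatoid body, was at -3.25, -3.71 and -3.49 at 8 days and 1.69, 1.63 and 1.63 at 24 days and rose 35.1-fold. Piwil1, the PIWI protein of pachytene spermatocytes, rose by 3.98 ± 0.13, Gtsf1, a cofactor of PIWI proteins, by 1.96 ± 0.19 and Tdrd12 by 1.71 ± 0.16. Piwil4, the nuclear PIWI protein of fetal and newborn germ cells, fell by 1.07 ± 0.10, with 8-day values of 0.43, 0.53 and 0.46 and 24-day values of -0.61, -0.54 and -0.67. Piwil2, another PIWI gene, rose by 0.60 ± 0.11, so Piwil1 and Piwil2 rose while Piwil4 fell. The 24-day arrays lay all above those of 8 days in Piwil1, as in 20.5% of all genes. They lay all below in Piwil4, as in 45.0% of all genes.

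Pachytene and later spermatocyte genes rose in 30 of 31 cases, with a median of 3.16, and Spata4, Gk2, Crisp2 and Fabp9 had the largest rises. Regulators of transcription in late germ cells rose in 21 of 24 cases (median 2.32). Stat4, a signal-activated transcription factor, was at 0.01, -0.12 and -0.19 at 8 days and 5.43, 4.91 and 4.64 at 24 days and rose by 5.09 ± 0.17. Spz1, a helix-loop-helix factor, rose by 4.53 ± 0.19, Kctd19, a meiotic regulator, by 4.32 ± 0.16 and Gtf2a1l, the germ cell counterpart of a TFIIA subunit, by 3.84 ± 0.14. Taf7l, an X-linked TFIID subunit, fell by 1.04 ± 0.18.

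RNA-binding and translation control genes rose in 13 of 18 cases, with a median of 1.59. Beside Pabpc2, Pabpc6, a second poly(A)-binding protein of germ cells, rose by 5.26 ± 0.17, Papolb, a cytoplasmic poly(A) polymerase, by 4.15 ± 0.19 and Ybx2, which stores messenger RNA in spermatids, by 3.67 ± 0.14. Cpeb1 was the single member that fell, by 0.39 ± 0.13, and its adjusted p in limma was 0.14 once arrays were centred. It was 0.0637 to 0.0927 without replicate 3 of 8 days or replicate 1 or 2 of 24 days.

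Of the list for spermatid chromatin, 15 of 19 genes rose and 1 fell (median 1.39). Protamine 1, Prm1, which packs sperm DNA, was at -0.08, -0.11 and 0.08 at 8 days and 5.44, 5.03 and 4.36 at 24 days. Prm2 was at 4.25, 3.57 and 2.66 at 24 days, and the transition proteins Tnp2 and Tnp1 were at 4.15, 3.81 and 2.58 and at 3.58, 2.90 and 1.85, each against 8-day values near 0. In all 4 genes replicate 1 was highest and replicate 3 lowest at 24 days. Every 24-day array lay above every 8-day array in these 4, as in 20.5% of all genes. The rises were 4.98 ± 0.22 for Prm1, 3.67 ± 0.31 for Prm2, 3.77 ± 0.34 for Tnp2 and 2.84 ± 0.33 for Tnp1, with adjusted p between 9.75e-08 and 5.48e-05 in limma. Brwd1, a bromodomain protein of this list, fell by 0.36 ± 0.10. Its call was lost in 4 of 22 alternatives, among them centring (adjusted p 0.11 in limma).

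Components of the acrosome, the head organelle that carries enzymes and egg-binding proteins, rose in 35 of 36 cases (median 2.95). Zpbp2, a zona pellucida binding protein, was at -2.97, -3.05 and -3.16 at 8 days and 2.28, 2.06 and 2.05 at 24 days and rose 36.5-fold. Llcfc1, a sperm protein needed for fusion with the egg, rose by 4.87 ± 0.20 and Atp8b3, a phospholipid flippase of the acrosome, by 4.76 ± 0.22. At 24 days replicate 1 was highest in 32 of the 36 genes and replicate 3 lowest in 24.

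All 26 genes of the fibrous sheath, outer dense fibres and mitochondrial sheath, the structures around the flagellum's core, rose at least 2-fold, with a median of 3.72. Smcp, the last of the 15 largest rises to appear, was at 0.00, -0.51 and -0.35 at 8 days and 5.68, 5.29 and 5.17 at 24 days. Odf4, of the outer dense fibres, rose by 4.86 ± 0.18 and Gapdhs, the glyceraldehyde phosphate dehydrogenase bound to the sheath, by 4.23 ± 0.22. Replicate 1 was the highest 24-day array in 25 of the 26.

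Genes of the axoneme, the microtubule core shared by flagella and motile cilia, rose in 64 of 68 cases, with a median of 3.04. Cfap206, a radial spoke protein, rose from -3.95, -4.15 and -4.05 to 1.39, 1.18 and 1.29, or 40.4-fold. Spag17 of the central pair rose by 4.98 ± 0.20, Lrrc6, a dynein assembly factor, by 4.90 ± 0.18 and Cfap69 by 4.58 ± 0.15. The list's median change was 1.60 from 8 to 16 days and 1.21 from 16 to 24 days, whereas for the fibrous sheath list it was 0.08 and 2.40. Dnah11, an axonemal dynein heavy chain of airway cilia, fell by 0.43 ± 0.11. Its call was lost in 3 of 22 alternatives, among them the replicate block (adjusted p 0.119 in limma).

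Sperm ion channels and transporters rose in 18 of 19 cases (median 3.48). Catsperb, an accessory subunit of the sperm calcium channel, rose by 5.20 ± 0.31, Slc9c1, the sperm sodium/proton exchanger, by 4.91 ± 0.21, Slco6c1, an organic anion transporter, by 4.46 ± 0.30 and Slc26a8, an anion transporter, by 4.40 ± 0.19. Hvcn1, a voltage-gated proton channel, fell by 0.92 ± 0.08. Kinases and phosphatases of spermatids rose in 20 of 23 cases, with a median of 2.02 and no member that fell. Stk33, a kinase, and Ppp3r2, the testis calcineurin subunit, rose by 4.80 ± 0.16 and 4.67 ± 0.21; Ppp1r42 and Ppp1r36, phosphatase 1 subunits, rose by 4.02 ± 0.22 and 3.94 ± 0.16.

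**Figure D3:**
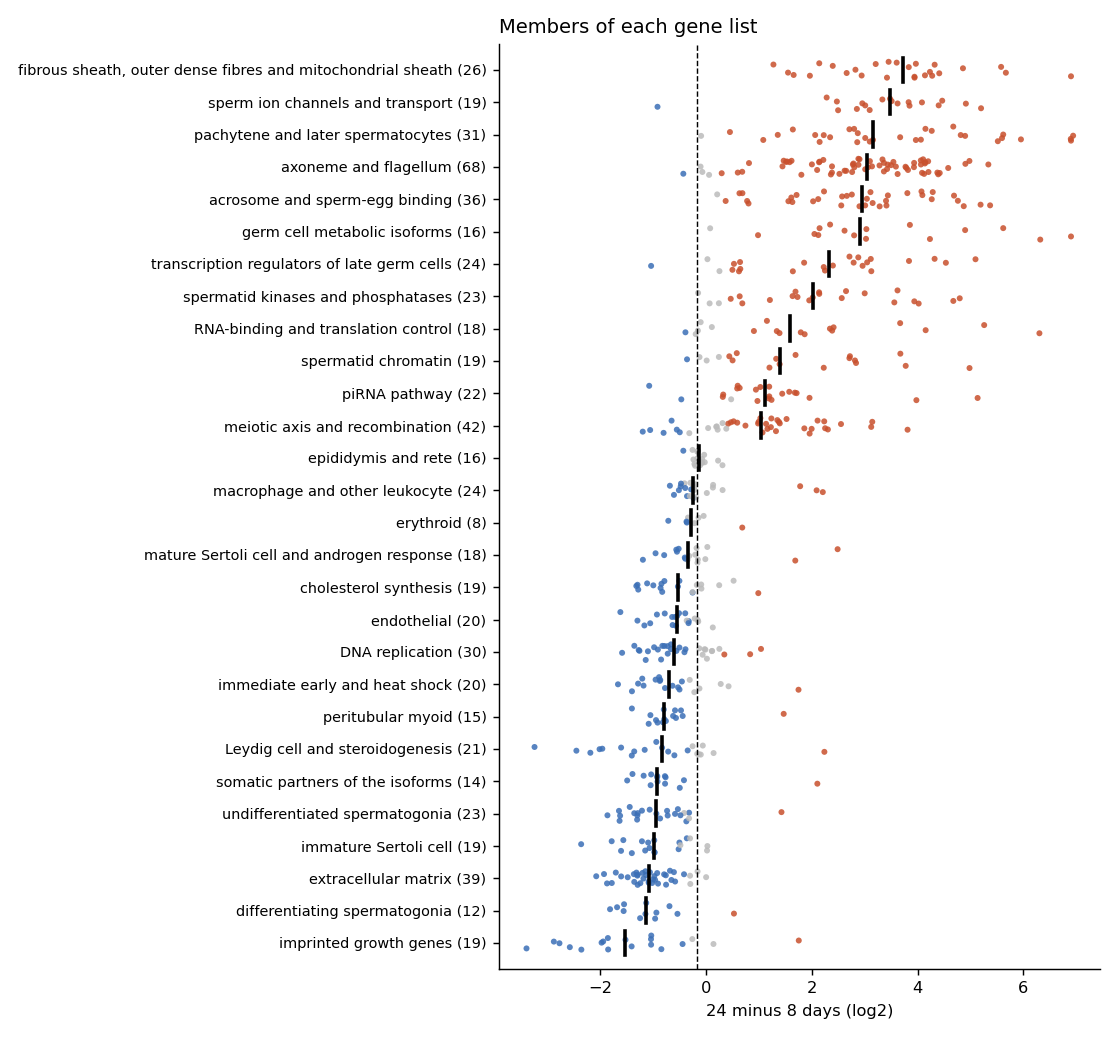
Each point is 1 measured gene of a list (number of genes in brackets), placed by its change from 8 to 24 days on the log2 scale (horizontal axis); red points rose, blue points fell and grey points were not called, thick bars are list medians, and the dashed line is the median of all genes, -0.18. Lists of spermatocyte and spermatid genes lie to the right, and lists of spermatogonia, extracellular matrix and imprinted growth genes lie to the left.

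Germ cells carry isoforms of metabolic enzymes, some of them encoded by autosomal genes whose somatic partner is on chromosome X. The partners Pgk1, Pdha1 and Cox7b are X-linked, whereas Ldha, Aldoc, Cycs and Cox8a are autosomal. Of 16 measured germ cell isoforms 15 rose, with a median of 2.91, whereas 13 of 14 somatic partners fell and 1 rose (median -0.92). Pgk2, the germ cell phosphoglycerate kinase, was at -1.69, -1.91 and -1.76 at 8 days and 3.44, 2.86 and 3.03 at 24 days and rose by 4.90 ± 0.27. Its X-linked partner Pgk1 was at 0.32, 0.84 and 0.75 and -0.30, -0.09 and -0.46 and fell by 0.92 ± 0.17. The pair thus moved in opposite directions, with no overlap between ages in either gene. Among all genes, the 24-day arrays lay all above those of 8 days in 20.5% and all below in 45.0%.

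Other pairs also differed in direction. Pdha2, a pyruvate dehydrogenase subunit, rose by 2.80 ± 0.12 while its X-linked partner Pdha1 fell by 1.04 ± 0.14. Cyct, the testis cytochrome c, rose by 2.35 ± 0.23 while Cycs fell by 0.42 ± 0.13, a fall with an adjusted p of 0.11 in limma after centring and lost (0.0515 to 0.0639) without replicate 2 or 3 of 8 days or replicate 1 or 3 of 24 days. Aldoc, an aldolase, and the respiratory chain subunits Cox7b and Cox8a fell by 1.49 ± 0.16, 1.39 ± 0.16 and 1.18 ± 0.10. Ldhb, a somatic lactate dehydrogenase, fell by 0.77 ± 0.14. Ldha, the other somatic form listed, did not fall. It was at -1.49, -1.0 and -1.29 at 8 days and 0.94, 0.71 and 0.89 at 24 days, a rise of 2.10 ± 0.14 beside the rise of 5.62 ± 0.11 in Ldhc. Ldha has close copies in the genome, and how the array rows treat them was not tested.

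The letters before the start sites were compared between genes that rose and genes that fell. CpG, a C followed by a G, is the pair of letters that DNA methylation acts on, and was counted in the 250 bases upstream of 15561 genes in RefSeq's GRCm38.p6. The median was 2.0 CpG in 128 genes of the late set of 8-fold rises, 9.0 in 278 genes of the early set, 15 in 1114 genes that fell at least 2-fold and 11 in all genes. No CpG at all was found in 14.8% of the late set, 2.16% of the early set, 0.987% of those that fell at least 2-fold and 5.79% of all. Genes that were not called had a median of 6.0, so a low count was found outside the genes that rose too. Genes with several start sites were given the mean of their promoters.

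The following 250 bases are shown because they span that range, with every CpG in capitals, 5′ to 3′ on the gene's strand and in GRCm38.p6. Smcp (chr3:92589074-92589323, minus strand), Acrv1 (chr9:36692970-36693219, plus strand) and Prm1 (chr16:10796824-10797073, minus strand) are late rises. Crisp2 (chr17:40794147-40794396, minus strand) and Pgk2 (chr17:40208610-40208859, minus strand) rose 119-fold and 29.8-fold. Pgk1 (chrX:106186850-106187099, plus strand) and Lamb1 (chr12:31265043-31265292, plus strand), a laminin chain of the basement membrane, fell. All 7 windows end at the base before the start site given by RefSeq.
Smcp: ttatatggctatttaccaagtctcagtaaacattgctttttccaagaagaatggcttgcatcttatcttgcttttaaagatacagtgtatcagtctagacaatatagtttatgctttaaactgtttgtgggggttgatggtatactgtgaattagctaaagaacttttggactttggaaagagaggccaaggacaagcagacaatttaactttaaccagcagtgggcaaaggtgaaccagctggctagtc
Acrv1: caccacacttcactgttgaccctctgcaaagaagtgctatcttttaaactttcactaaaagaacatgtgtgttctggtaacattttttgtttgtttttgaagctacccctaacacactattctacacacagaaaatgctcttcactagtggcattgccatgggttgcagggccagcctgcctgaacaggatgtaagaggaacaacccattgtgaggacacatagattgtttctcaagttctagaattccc
Prm1: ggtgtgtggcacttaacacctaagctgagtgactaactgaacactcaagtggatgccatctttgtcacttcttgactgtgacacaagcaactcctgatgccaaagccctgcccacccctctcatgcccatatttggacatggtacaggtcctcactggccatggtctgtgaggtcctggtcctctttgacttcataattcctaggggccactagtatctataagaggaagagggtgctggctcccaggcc
Crisp2: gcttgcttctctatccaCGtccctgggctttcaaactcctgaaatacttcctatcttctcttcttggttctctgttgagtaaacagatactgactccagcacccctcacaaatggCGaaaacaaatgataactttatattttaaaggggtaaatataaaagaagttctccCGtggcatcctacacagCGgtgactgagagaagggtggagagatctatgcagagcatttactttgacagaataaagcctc
Pgk2: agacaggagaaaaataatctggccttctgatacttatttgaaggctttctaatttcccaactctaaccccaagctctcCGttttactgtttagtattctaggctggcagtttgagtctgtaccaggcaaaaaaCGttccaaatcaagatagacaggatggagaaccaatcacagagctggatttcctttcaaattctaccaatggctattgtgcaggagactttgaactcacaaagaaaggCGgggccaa
Pgk1: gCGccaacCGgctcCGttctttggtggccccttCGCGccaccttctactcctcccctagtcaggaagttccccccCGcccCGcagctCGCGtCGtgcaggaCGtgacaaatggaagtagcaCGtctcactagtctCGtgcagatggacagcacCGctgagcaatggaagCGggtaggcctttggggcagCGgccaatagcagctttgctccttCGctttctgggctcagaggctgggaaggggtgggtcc
Lamb1: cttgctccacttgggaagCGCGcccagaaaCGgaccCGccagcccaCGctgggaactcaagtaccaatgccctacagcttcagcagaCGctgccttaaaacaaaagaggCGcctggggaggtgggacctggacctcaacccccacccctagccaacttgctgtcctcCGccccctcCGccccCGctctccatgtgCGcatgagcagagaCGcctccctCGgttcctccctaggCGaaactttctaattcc

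The windows of Smcp, Acrv1 and Prm1 held 0 CpG, those of Pgk2 and Crisp2 held 3 and 4, and those of Lamb1 and Pgk1 held 14 and 17. Of the forms of phosphoglycerate kinase, Pgk2, which rose, held fewer than Pgk1, which fell. G or C made up 95 of the 250 letters in Smcp, 105 in Acrv1 and Pgk2, 106 in Crisp2, 129 in Prm1, 155 in Lamb1 and 157 in Pgk1. Prm1 thus held more G or C than Crisp2 and Pgk2 but fewer CpG.

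A total of 16 short motifs were searched on both strands, all but the first chosen after values had been seen. The cyclic AMP response element TGACGTCA, the site of the spermatid activator CREM, was in 1.23% of promoters of genes that rose at least 8-fold and in 2.34% of all. GTTGCCA, the core of sites for RFX factors, which act on ciliary genes, was in 11.1% of them, 3.89% of all and 1.97% of genes that fell at least 2-fold. AACNGTT, the core letters of MYB sites, was in 8.13% against 3.89% of all. GGGCGG, the GC box, was in 30.5% against 49.4% of all and 70.8% of genes that fell at least 2-fold. Shares were near those of all genes for TATAAA (11.1% against 12.5%), CCAAT (36.7% against 38.8%) and CAGGTG (20.2% against 19.3%). TGACGTCA and GGGCGG contain a CpG, and the part of CpG content in their shares was not tested. A gene with several start sites was counted if any of its promoters held the motif. A match is a description of letters and not a site.

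**Figure D4:**
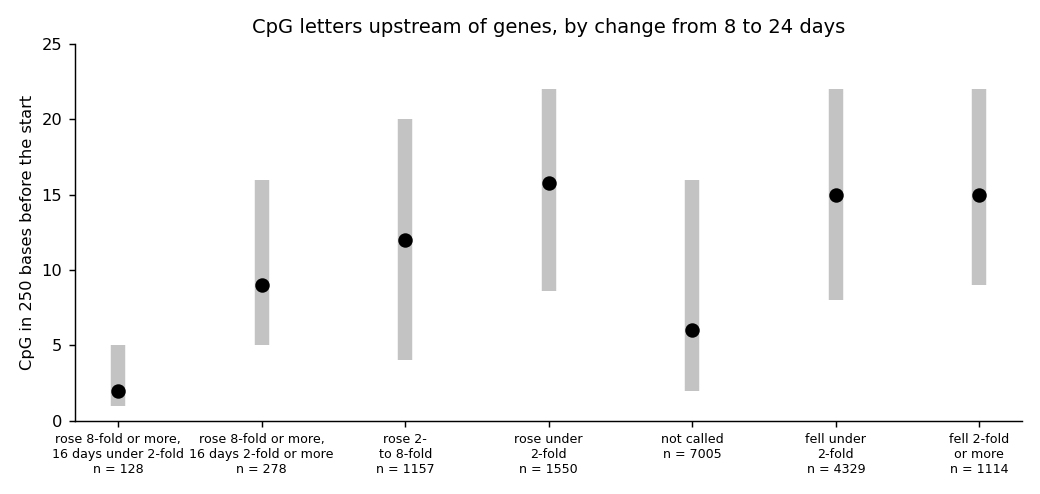
Points are median counts of CpG in the 250 bases before the start (vertical axis) and bars span the first to the third quartile, for genes classed by their change from 8 to 24 days (horizontal axis, n genes under each class). The late set of 8-fold rises is lowest at 2.0, and genes that fell lie at 15.

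The 15 largest falls among named genes ran from -3.39 to -2.36, with adjusted p from 1.61e-07 to 5.13e-05 in limma. Zim1, an imprinted zinc finger gene, fell 10.5-fold, from 2.01, 2.42 and 1.91 at 8 days to -1.47, -1.26 and -1.11 at 24 days. Sel1l3 fell 10.2-fold, from 2.21, 2.25 and 2.31 to -1.12, -1.08 and -1.10. Hsd17b3, which makes testosterone from androstenedione, fell 9.46-fold, from 1.5, 2.62 and 1.95 to -1.20, -0.99 and -1.46. The 15 were taken only from called genes whose arrays of the ages did not overlap, so the absence of overlap is no result. In Zim1, Sel1l3 and Hsd17b3 the 3 arrays of 8 days spanned up to 1.12.

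The imprinted genes Mest, Plagl1, Dlk1 and Igf2 fell by 2.88 ± 0.20, 2.77 ± 0.27, 2.57 ± 0.22 and 2.36 ± 0.16. Mmp2, a gelatinase, Dpt, a dermatan sulfate-binding matrix protein, Gpc3, an X-linked glypican, and Thbs2, a thrombospondin, fell by 2.72 ± 0.14, 2.53 ± 0.22, 2.46 ± 0.22 and 2.45 ± 0.15. Nrk, an X-linked kinase, Itm2a, an X-linked membrane protein, and Lpcat2, an acyltransferase of phospholipids, fell by 2.70 ± 0.28, 2.64 ± 0.31 and 2.62 ± 0.18. Amh, the anti-Müllerian hormone of immature Sertoli cells, fell by 2.36 ± 0.25, from 1.27, 2.34 and 1.36 to -0.90, -0.65 and -0.56. Replicate 2 was the highest 8-day array in 14 of the 15 and replicate 1 the lowest 24-day array in 14. All 15 had a 16-day mean more than 2-fold below that of 8 days.

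Most spermatogonial genes fell. The list of undifferentiated spermatogonia had 23 genes, of which 20 fell and 1 rose, with a median change of -0.94. Itga6, an integrin of the stem cell surface, fell by 1.86 ± 0.19, Sall4, a zinc finger factor, by 1.65 ± 0.14 and Ret, the receptor of GDNF, by 1.62 ± 0.17. Id4, a marker of stem cells, was the member that rose: its 8-day arrays were at -1.12, -1.30 and -1.25 and its 24-day arrays at 0.12, 0.21 and 0.28, a rise of 1.43 ± 0.09. Id4 is also known in spermatocytes, and the array cannot tell the cells apart.

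Differentiating spermatogonia were represented by 12 genes, of which 11 fell and 1 rose (median -1.14). The cyclin Ccnd2 fell by 1.81 ± 0.14, Crabp1, which binds retinoic acid, by 1.68 ± 0.15, Uchl1, a ubiquitin hydrolase, by 1.56 ± 0.11 and Dmrt1, a regulator of meiotic entry, by 1.55 ± 0.16. Dmrtb1, which acts at the switch from mitosis to meiosis, rose by 0.53 ± 0.13. Genes of DNA replication fell in 19 of 30 cases and rose in 3 (median -0.61). Mcm2 and Mcm4, subunits of the replicative helicase, fell by 1.59 ± 0.12 and 1.26 ± 0.19, Tyms, which makes thymidylate, by 1.36 ± 0.21 and Cdt1, a licensing factor, by 1.27 ± 0.13. Gins1, of a complex that works with that helicase, rose by 1.04 ± 0.18.

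Sertoli cell genes were listed by the maturity of the cell. Of 19 genes of immature Sertoli cells 15 fell and none rose, and the median was -0.98. Beside Amh, Inhba, an activin and inhibin subunit, fell by 1.78 ± 0.16, Gata4, a transcription factor, by 1.61 ± 0.13 and Kitl, the ligand of KIT, by 1.56 ± 0.11. Of 18 genes of mature Sertoli cells and androgen response 8 fell and 2 rose, with a median of -0.33. The junction genes Gja1 and Ocln fell by 1.19 ± 0.15 and 0.95 ± 0.15.

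The 2 that rose were Tsx and Cst9. Tsx, a testis gene of chromosome X, was at -1.44, -1.95 and -1.68 at 8 days and 0.78, 1.22 and 0.39 at 24 days and rose by 2.49 ± 0.22. Cst9, a cystatin known as testatin, was at -2.97, 0.12 and -2.35 at 8 days and -0.18, 0.04 and 0.00 at 24 days. Replicate 2 of 8 days stood 2.47 above the other 8-day arrays in Cst9 and overlapped the 24-day arrays. Its rise of 1.69 ± 0.62 had an adjusted p of 0.0413 in limma, and in 13 of 22 alternatives it lay between 0.0544 and 0.237. The change was 1.07 without replicate 1 of 8 days and 2.61 without replicate 2.

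Leydig cell and steroidogenesis genes fell in 14 of 21 cases and rose in 1, with a median of -0.83. Hsd17b3 and Thbs2, already named, had the largest falls. Cyp17a1, which makes androgen precursors, was at 1.72, 1.44 and 1.39 at 8 days and 0.15, 0.00 and -2.17 at 24 days. Replicate 3 of 24 days lay 2.17 below the nearest other 24-day array. The change was -2.19 ± 0.66, and without that array it was -1.44 (adjusted p 0.053 in limma). Without replicate 1 of 8 days the change was -2.08 (adjusted p 0.055 in limma).

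Hsd3b6, the 3-beta-hydroxysteroid dehydrogenase of adult Leydig cells, rose by 2.24 ± 0.52. Its 8-day arrays were at 0.00, -0.77 and -0.09 and its 24-day arrays at 1.33, 3.36 and 1.16. Replicate 2 of 24 days was highest, as it was in 13 of the 21 genes of the list, and replicate 3 was lowest in 13. Without replicate 2 the rise was 1.53. The list's median was -0.11, -0.03 and -0.35 in replicates 1, 2 and 3 of 24 days. The part of such differences between samples in these results was not tested.

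Peritubular myoid genes fell in 14 of 15 cases (median -0.79). Tpm1, a tropomyosin, Myl9, a myosin light chain, and Cald1, caldesmon, fell by 1.40 ± 0.15, 1.08 ± 0.11 and 1.05 ± 0.13, and Acta2, smooth muscle actin, by 0.95 ± 0.11. Actg2, another smooth muscle actin, went the other way: it was at 0.11, 0.00 and -0.13 at 8 days and 2.08, 1.22 and 1.08 at 24 days, a rise of 1.47 ± 0.23. Endothelial genes fell in 15 of 20 cases and none rose (median -0.56). Cdh5, the cadherin of vessels, fell by 1.62 ± 0.15, Erg, a transcription factor, by 1.30 ± 0.09, Kdr, the VEGF receptor, by 1.17 ± 0.10 and Eng, endoglin, by 1.06 ± 0.12.

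Blood cells and the ducts that leave the testis were covered by lists of their own. Of 24 macrophage and other leukocyte genes 9 fell and 3 rose, with a median of -0.24 against -0.18 for all genes, and after centring 3 fell. A share of falls near the 35.2% of all genes is not a result about these cells. The list's median lay between 0.00 and 0.12 in the 8-day arrays and between -0.20 and 0.00 in the 24-day arrays. The 3 that rose were Fcgr3, an immunoglobulin receptor, with 2.21 ± 0.23, Aif1, an actin-binding protein of macrophages, with 2.09 ± 0.18, and H2-Ab1, a class II chain, with 1.78 ± 0.21. H2-Aa, the partner chain of H2-Ab1, and Csf1r, the defining receptor of macrophages, had differences of 0.13 ± 0.21 and -0.51 ± 0.11, so the 3 rises were not shared by the list. Without replicate 1 of 24 days 5 members fell in place of 9.

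Among 8 erythroid genes 3 fell and 1 rose, beside 35.2% and 19.2% of all genes. The share of falls is near that of all genes and is not a result about these cells. Hemgn, a nuclear protein of red cell precursors, rose by 0.69 ± 0.13 and Tfrc, the transferrin receptor, fell by 0.71 ± 0.13. Among 16 genes of epididymis and rete testis 1 fell, Pax8, by 0.43 ± 0.09, and none rose, with a median of -0.13. Of 1027 olfactory receptor genes 24 rose and 37 fell as deposited, and 47 rose and 4 fell after centring.

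Extracellular matrix genes fell in 35 of 39 cases and none rose, with a median of -1.08. Lox, which crosslinks collagen, was at 1.21, 1.22 and 1.38 at 8 days and -1.02, -0.62 and -0.78 at 24 days and fell by 2.08 ± 0.18. Fibronectin, Fn1, fell by 1.93 ± 0.19, Lamb1 by 1.87 ± 0.16 and the proteoglycan Vcan by 1.78 ± 0.32. After centring 35 of 39 fell as well.

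Imprinted growth genes, expressed from the copy of 1 parent and highest in fetal tissues, fell in 16 of 19 cases, 14 of them at least 2-fold. Their median of -1.52 was the lowest of the 28 lists. Mest was at 2.0, 2.89 and 2.15 at 8 days and -0.60, -0.51 and -0.49 at 24 days, and Igf2, the fetal insulin-like growth factor, at 1.14, 1.34 and 1.13 and -1.40, -0.95 and -1.11. Asb4, an imprinted gene of a ubiquitin ligase, rose by 1.75 ± 0.19, from -0.29, -0.37 and -0.69 to 1.31, 1.21 and 1.39.

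Cholesterol synthesis genes fell in 12 of 19 cases and rose in 1 (median -0.53). Srebf2, the transcription factor of the pathway, fell by 1.32 ± 0.13, its regulator Insig1 by 1.30 ± 0.14, and the enzymes Dhcr7 and Nsdhl by 1.28 ± 0.11 and 1.11 ± 0.15. Fdft1, squalene synthase, rose by 0.99 ± 0.13, with 8-day arrays at -0.36, -0.01 and 0.06 and 24-day arrays at 1.05, 0.76 and 0.84. Immediate early and heat shock genes, which respond to growth signals and handling of tissue, fell in 14 of 20 cases and rose in 1 (median -0.71). Btg2, an antiproliferative gene, fell by 1.66 ± 0.13 and the AP-1 factors Jund and Jun by 1.40 ± 0.15 and 1.28 ± 0.15. Dnajb1, a heat shock cochaperone, rose by 1.75 ± 0.14. The list's median was 0.39, 0.23 and 0.29 in the arrays of 8 days and -0.46, -0.37 and -0.25 in those of 24 days, and a part of tissue handling in this was not tested.

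Symbols grouped by the letters before their first digit gave 99 families of at least 20 genes. Their counts are read against the 19.2% of all genes that rose and the 35.2% that fell. The highest shares of rises were in 30 of 31 Cfap genes of cilia and flagella, 23 of 29 Spata genes, 28 of 37 Cep genes of centrosomes, 25 of 37 Tex genes, 21 of 34 Adam genes, 70 of 130 Ccdc coiled-coil genes, 17 of 38 Prss proteases and 17 of 41 Ttc genes. The highest shares of falls were 16 of 20 Sema genes, the guidance molecules, 20 of 31 Snord small nucleolar RNAs, 23 of 36 Rpl and 19 of 31 Rps ribosomal proteins, 14 of 22 Pcdhb protocadherins, 24 of 38 genes whose symbols begin with Sh and 17 of 27 RNA polymerase subunits (Polr). After centring all 16 Sema falls were counted, whereas Snord had 14, Rpl 16 and Rps 13, beside falls in 26.3% of all genes. Next among falls, tied at 60%, were 12 of 20 Kctd genes, 12 of 20 Snora small nucleolar RNAs and 15 of 25 genes whose symbols begin with St.

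Genes without a standard name, which carry RIKEN clone symbols, rose in 274 of 741 cases (37%), beside 19.2% of all genes. Falls numbered 128 (17.3%), beside 35.2% of all genes. At least 8-fold, 63 of the 741 rose, beside 501 of all 19935 genes. The largest of these rises, chosen after its values were seen, was 1700006A11Rik, at -5.48, -5.61 and -5.34 at 8 days and 0.45, 0.80 and 0.57 at 24 days, 67.9-fold higher. By RefSeq's gene types, 35 of 53 small nucleolar RNAs fell (66%) and none rose, and 72 of 297 genes of the type miRNA fell (24.2%) and 1 rose, beside falls in 35.2% of all genes. After centring, 22 small nucleolar RNAs and 42 miRNA genes fell, 5 miRNA genes rose, and 26.3% of all genes fell.

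A larger share of X-linked than of autosomal genes fell. Of 739 X-linked genes 54.5% fell and 12.3% rose, against 34.5% and 19.4% of 19103 autosomal genes. At least 2-fold, 21.5% of X-linked genes fell and 7.17% rose, against 6.62% and 9.81% of autosomal genes. The X-linked median minus the autosomal median was 0.07, 0.22 and 0.13 in the 3 arrays of 8 days and -0.15, -0.09 and -0.18 in those of 24 days, so the ages did not overlap. The exact permutation test over 3 against 3 arrays cannot give a 2-sided p under 0.1. After centring 45.6% of X-linked genes fell, against 25.6% of autosomal genes.

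The 53 X-linked genes that rose at least 2-fold, named here after their values were seen, included Akap4, an anchor for protein kinase A in the fibrous sheath. Akap4 was at 0.09, -0.27 and -0.24 at 8 days and 4.77, 4.30 and 3.75 at 24 days and rose by 4.41 ± 0.22. Fam122c rose by 3.37 ± 0.21, Cldn34b4, a claudin, by 3.32 ± 0.20, Satl1 by 3.22 ± 0.24, Tsga8, a gene of haploid germ cells, by 3.0 ± 0.15 and Tcp11x2 by 2.79 ± 0.24. All 6 had 8-day means from -0.175 to -0.031 and 16-day arrays within 0.26 of 0. Their difference thus lay between 16 and 24 days. Of 9 measured Y-linked genes 3 rose and 3 fell (33.3% each), beside 19.2% and 35.2% of all genes. The share of falls is near that of all genes and is not a result about chromosome Y. Srsy, read by 18 array rows of a multicopy family, rose by 2.88 ± 0.23, and the zinc finger genes Zfy1 and Zfy2 rose by 0.86 ± 0.13 and 0.66 ± 0.19. The histone demethylase genes Kdm5d and Uty and the ubiquitin-activating gene Uba1y fell by 1.19 ± 0.15, 1.12 ± 0.20 and 0.94 ± 0.14.

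**Figure D5:**
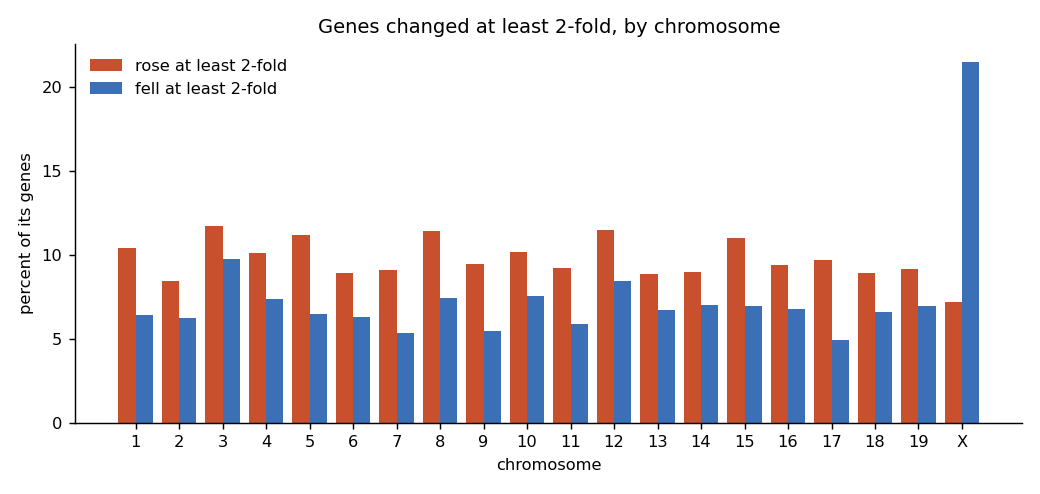
Bars give the percent of each chromosome's genes that rose and fell at least 2-fold between 8 and 24 days (limma, adjusted p under 0.05). Falls make up 21.5% on chromosome X and 6.62% over all autosomes.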

How the data were processed

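Whole-testis RNA was measured on 9 arrays, 3 per age, labelled by the Affymetrix whole-transcript protocol per the labels. The deposited values are on a log2 scale and give each array's difference from the median of its row. Background correction, normalization and the base of the logarithm are not given in the sources used here, and log2 is taken from the range of the values (-6.07 to 6.05). Blanks (15.0% of cells) mark a row's median and were taken as 0, since every row then had a median of 0. Values of this kind hold no level or depth, dim genes could not be left out, and precision is limited by the number of arrays.

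Of 28815 rows, 21780 carried 1 gene symbol in the platform's annotation, 1605 several and 5430 none. The gene IDs of 21689 matched RefSeq (GRCm38.p6), which gave names, chromosomes and promoter sequences. A mean per age was fitted to all 9 arrays with limma 3.58.1 in R 4.3.3 (6 residual and 3.82 prior degrees of freedom), with 2-sided tests, Benjamini-Hochberg adjustment over 19935 genes and a threshold of 0.05. Named genes are the 15 largest rises and falls, for each list the up to 4 largest called changes and the largest call in the other direction, 12 stage genes and isoform pairs. The first of these leave out multicopy and unnamed genes. The gene lists and the rule for named genes were chosen with earlier results of these data known. The fit was tested on simulated data.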

Additional observations from a re-analysis of the deposited data

Results flagged for a closer look

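Array rows with no gene symbol or with several symbols stood outside the gene counts, and 433 of these 7035 rows were at least 2-fold higher at 24 days. In limma's test of these rows (adjusted p under 0.05, Benjamini-Hochberg over them) 737 rose and 1480 fell, and the largest rise was 5.90 on the log2 scale. Of the 5430 rows with no symbol at all, 416 rose, 198 of them at least 2-fold, and 1045 fell.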

How the results depend on the processing

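No list median and no named gene turned its direction under any alternative run. Of 3132 results for 143 named genes, 3068 kept their call and 64 lost it, in Add2, Brwd1, Cpeb1, Cst9, Cycs, Cyp17a1, Dmrtb1, Dnah11, Gins1, Hemgn, Ocln, Pax8, Pgk1, Rhd, Stra8, Taf7l, Tex11, Tfrc and Tyrobp. Of 616 list medians, taken relative to all genes, 63 moved by at least the SD between arrays, and of 616 list counts 590 stayed within 1.5 times the main count.

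Limma's test against a 1.5-fold change (treat) left 1975 rises and 1603 falls, and a 2-fold minimum left 1937 and 1427. Under treat the members that fell were 11 of undifferentiated and 7 of differentiating spermatogonia, 6 of DNA replication, 6 somatic partners of isoforms, 1 of mature Sertoli cells, 6 of Leydig cells, 5 myoid, 4 endothelial, 0 leukocyte, 0 erythroid, 0 of epididymis, 23 of extracellular matrix, 5 of cholesterol synthesis and 7 immediate early genes. With only genes of 1 row, 7 somatic partners fell. With arrays centred, 3 leukocyte genes fell, and with array weights 2 of epididymis.

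No label says that replicate numbers pair samples, and same-numbered deviations of 8 and 24 days correlated at 0.195 and 0.197, but those of 8 and 16 days at -0.136 and -0.461. A replicate block on the numbered arrays gave 3005 rises and 4571 falls. The same arrays with no block, an alternative chosen after seeing the data, gave 3180 and 5247. With and without the block, 5 mature Sertoli, 3 leukocyte and 1 erythroid gene fell, and with it 0 of epididymis. The cause was not tested, but these fits use fewer arrays.

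Leaving out 1 array at a time gave 3512 to 3854 rises and 5829 to 7386 falls, from 5 to 10 leukocyte and from 1 to 2 epididymis falls. The other alternatives (blanks left missing, rows with 1 blank, the row of largest variance, robust eBayes, an olfactory receptor covariate, only the 6 arrays of both ages, and, chosen after seeing the data, without the 2 arrays of raised olfactory receptor values) kept all list counts and overall counts within 1.5 times.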
